A study of Mus musculus with 4 samples.

Results

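The genes described are 7 of the 21046 in a table of nuclear RNA from mouse kidney cortex: the natriuretic peptide receptors Npr1, Npr2 and Npr3, the adrenomedullin receptor Calcrl with its partners Ramp2 and Ramp3, and the ligand gene Adm. They were taken by symbol, and all 7 have a row. The table covers 23 numbered clusters of nuclei in 4 libraries, 1 library per genotype. The genotypes were Klf4flox/flox (the control, with loxP sites flanking part of Klf4), Klf4deltaEC (Klf4 deleted in endothelial cells), Nos3-/- (without a functional gene for endothelial nitric oxide synthase) and Klf4deltaECNos3-/- (both), all on C57BL/6J. The labels used here give neither the Cre driver nor the age or sex, nor whether a library holds 1 mouse or several, and nothing replicates a genotype. The series title asks what lowering endothelial Klf4, a zinc-finger transcription factor, does in mice with and without Nos3.

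Natriuretic peptides are made mainly by the heart and blood vessels. NPR-A (Npr1) and NPR-B (Npr2) are membrane guanylyl cyclases that answer a bound peptide by making cyclic GMP, the same messenger that nitric oxide raises through a soluble cyclase, while NPR-C (Npr3) lacks a cyclase domain and is known mostly for clearing peptides. Adrenomedullin, the product of Adm, widens vessels and tightens the endothelial barrier through the G protein-coupled receptor CLR (Calcrl), which must pair with RAMP2 or RAMP3 to recognise it and signals through cyclic AMP. In the glomerulus, podocytes and endothelial cells are known sites of natriuretic peptide receptors.

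A level below is the mean over the nuclei of a cluster and library of UMIs (counted RNA molecules) per 10000 UMIs. Brackets hold 95% counting intervals, exact Poisson for a level and exact binomial (Clopper-Pearson) for a ratio, which cover counting error only. Where 4 values stand together their order is Klf4flox/flox, Klf4deltaEC, Nos3-/- and Klf4deltaECNos3-/-. A log2 ratio compares (level + 0.1) between 2 libraries, which understates the ratio of low genes, and is read against a size limit of 1 in either direction among genes whose higher level reached 0.5. No test could be run on single libraries, and mouse, dissection, preparation and genotype cannot be told apart.

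The inferred nuclei numbered 6766, 6883, 7004 and 5491, 26144 in all, with 270, 284, 327 and 186 in endothelial-like cluster 10 and 131, 148, 142 and 105 in podocyte-like cluster 15. Clusters were named from marker genes; in cluster 15 the 7 podocyte markers summed to 913, 937, 839 and 1059 per 10000, and in cluster 10 the 8 endothelial markers summed to 83.5, 102, 51.7 and 85.5. The library labelled Nos3-/- stood apart. Its median UMIs per nucleus, weighted over clusters, were 2351 against 4126 to 5390 in the others, all 13 mitochondrially encoded genes of cluster 10 were below the control (median log2 ratio -1.48), and genes shorter than 20 kb had a median ratio of -0.48 against 0.09 for genes of 100 kb or more. In that library cluster 10 also held more proximal tubule marker RNA (summed level 47.1 against 14.9 to 23.5). Podocyte markers summed to 21.9 against 9.48 to 12.6, but Magi2 made up 16.4. Of the 7 podocyte markers 4 were above the control and 3 below (median log2 ratio 0.12), so the higher sum rests on Magi2. The part of these differences in the results below was not tested. The targeted genes do not show the labels: in cluster 10 Klf4 was at 0.621, 0.779, 0.445 and 0.824 and Nos3 at 1.26, 0.930, 1.52 and 2.07. The sources used here do not say whether counted reads lie inside the deleted parts, so these levels check nothing, and genotypes are named only as labels.

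Promoter sequence was looked up because the study alters a Krüppel-like factor, a family known to bind CACCC letters. RefSeq upstream sequence (GRCm38.p6) was matched for 6 of the 7 genes; Ramp2 was not matched. The 250 bases before the start are shown for the podocyte and endothelial receptors Npr1 and Npr3 and for the endothelial partner Ramp3, 5′ to 3′ on the gene's strand, with CACCC or its reverse complement GGGTG in capitals. They lie at chr3:90465867-90466116 (minus strand), chr15:11907372-11907621 (minus strand) and chr11:6658283-6658532 (plus strand).
Npr1: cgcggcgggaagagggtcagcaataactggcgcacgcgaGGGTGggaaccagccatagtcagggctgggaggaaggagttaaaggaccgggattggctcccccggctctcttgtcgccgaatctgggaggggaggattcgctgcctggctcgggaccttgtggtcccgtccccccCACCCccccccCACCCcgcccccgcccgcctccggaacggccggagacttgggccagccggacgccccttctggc
Npr3: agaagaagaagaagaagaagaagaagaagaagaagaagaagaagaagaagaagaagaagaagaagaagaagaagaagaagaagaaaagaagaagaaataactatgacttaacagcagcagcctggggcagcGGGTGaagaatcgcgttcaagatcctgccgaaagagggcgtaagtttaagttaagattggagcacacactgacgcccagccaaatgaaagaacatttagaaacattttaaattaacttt
Ramp3: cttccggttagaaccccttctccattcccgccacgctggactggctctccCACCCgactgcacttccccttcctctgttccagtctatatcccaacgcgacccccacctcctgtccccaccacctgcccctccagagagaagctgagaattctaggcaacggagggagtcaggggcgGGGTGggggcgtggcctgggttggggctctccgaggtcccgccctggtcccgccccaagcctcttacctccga
The letters occur 3 times in the Npr1 window, once in that of Npr3 and 2 times in that of Ramp3. Calcrl has 1 match, and Npr2 and Adm have none. Of all 32851 promoters of this length, 52.0% hold at least 1 match and 21.1% hold 2 or more. A match is therefore common and is a description of these letters only.

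Npr1, Npr3 and Adm had their highest mean level over libraries in podocyte-like cluster 15, although the range over libraries overlaps that of the next cluster for all 3: endothelial-like cluster 10 for Npr1, cluster 18 for Npr3 and unnamed cluster 12 for Adm, which was scarce. Npr1, the cyclase for the cardiac peptides, was at 1.32 (0.977 to 1.75), 1.30 (0.935 to 1.76), 1.30 (0.938 to 1.75) and 1.51 (1.15 to 1.93). These 4 values span less than any of their own intervals, and the 5 log2 ratios ran from -0.02 to 0.20. The mean over libraries was 1.36 ± 0.101 (SD over 4 libraries, each of a different genotype).

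Npr3, the clearance receptor, was at 3.05 (2.51 to 3.66), 4.79 (4.06 to 5.61), 2.94 (2.39 to 3.59) and 3.59 (3.03 to 4.22) in podocyte-like nuclei. The library labelled Klf4deltaEC was the highest, and its interval does not overlap that of the control or of Nos3-/-. The log2 ratio of Klf4deltaEC over Klf4flox/flox was 0.64 (0.29 to 1.02), below the size limit, and that of Klf4deltaECNos3-/- over Klf4deltaEC was -0.41 (-0.75 to -0.08). The lowest podocyte level of Npr3 was above the highest endothelial one of 2.15.

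Adm, the ligand, was at 0.0969 (0.0240 to 0.260), 0.188 (0.0688 to 0.408), 0.233 (0.0985 to 0.464) and 0.372 (0.209 to 0.612) in podocyte-like nuclei. Inferred counts behind these levels ran from 3.59 to 15.2 UMIs, neighbouring intervals overlap, and no library reached the level of 0.5 that ratios need. In cluster 10 Adm was listed at 0 in 2 libraries and at 0.0466 and 0.0182 in those labelled Klf4deltaEC and Klf4deltaECNos3-/-, all below the level of 3 counts there (0.0717 to 0.0893). The ligand and its receptor were therefore highest in different clusters: Calcrl in podocyte-like nuclei was at 0, 0.0525, 0.0966 and 0.00992. Ramp2 and Ramp3 did not exceed 0.0348 in that cluster, below the level of 3 counts (0.0734 to 0.0937), and Npr2 was at 0.0343 to 0.115.

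Of the 7 genes, 2 (Npr1 and Npr3) reached the level needed in cluster 15, and neither passed the limit in any comparison. Over all genes the share past the limit in this cluster was 3.23% for Klf4deltaEC over Klf4flox/flox, 8.55% for Nos3-/- over Klf4flox/flox, 11.7% for Klf4deltaECNos3-/- over Nos3-/-, 4.83% for Klf4deltaECNos3-/- over Klf4deltaEC and 4.22% for Klf4deltaECNos3-/- over Klf4flox/flox.

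**Figure D1:**
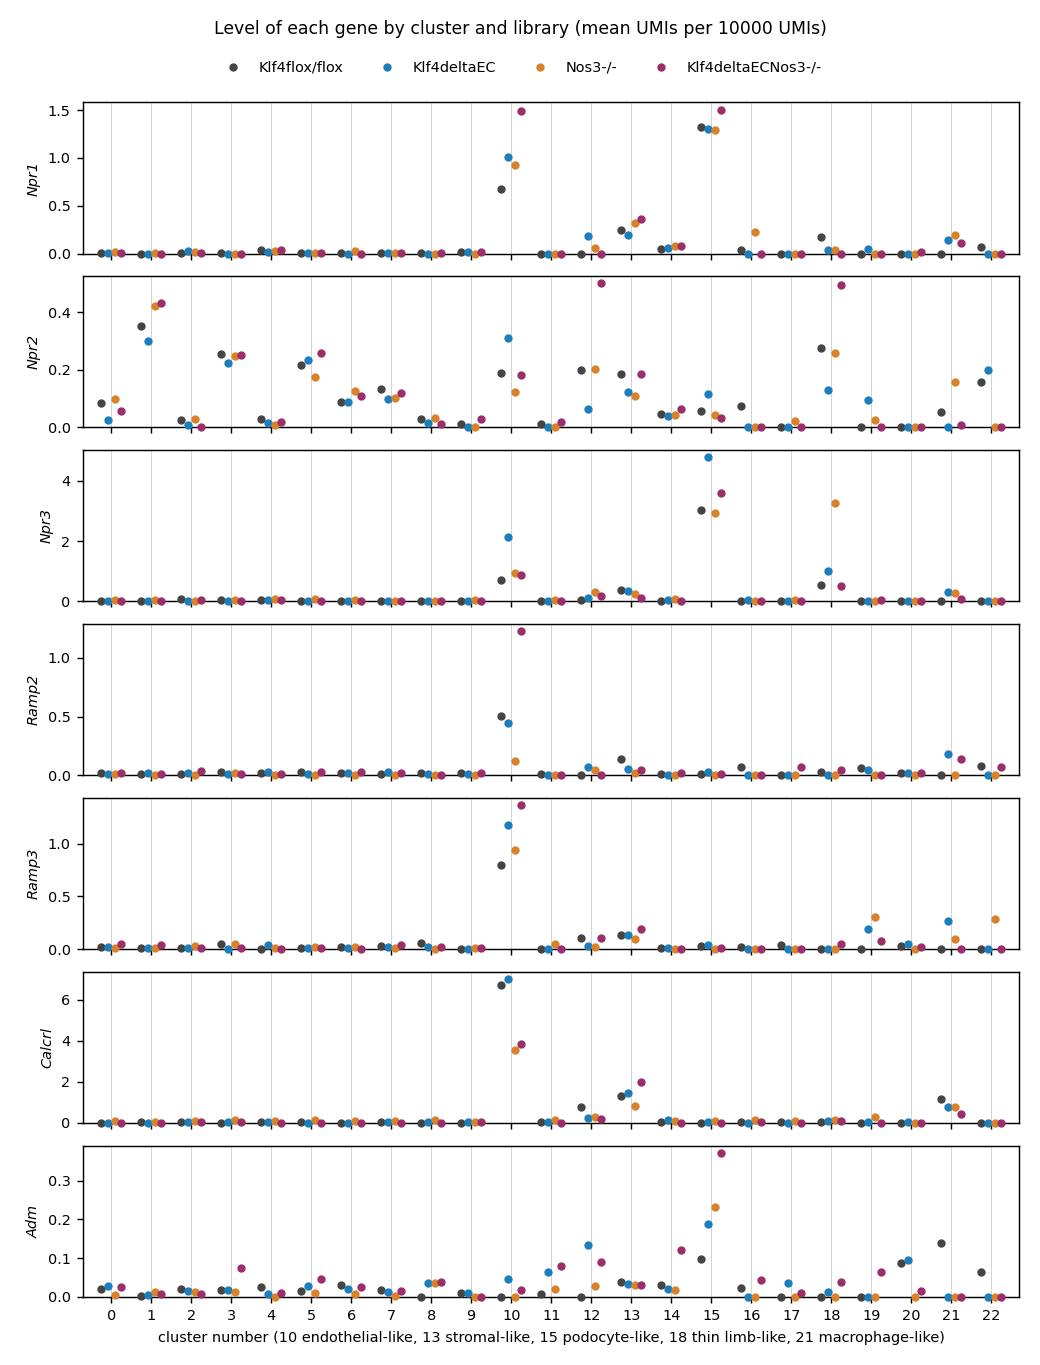
Level (mean UMIs per 10000 UMIs, y axis, linear, a separate scale for each gene) of the 7 genes in 23 clusters (x axis), 1 point per library. Calcrl, Ramp2 and Ramp3 peak in cluster 10, Npr1 in clusters 15 and 10, Npr3 in clusters 15, 18 and 10 and Adm in cluster 15, while Npr2 is spread over proximal tubule-like clusters 1, 3 and 5.

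Endothelial-like cluster 10 was the home of the adrenomedullin receptor. Calcrl, the receptor itself, was at 6.71 (5.95 to 7.54), 7.01 (6.22 to 7.86), 3.55 (2.99 to 4.18) and 3.84 (3.21 to 4.56), resting on 129 to 288 inferred UMIs a library. The libraries fall into 2 pairs: both with a Nos3-/- label lie below both without it, and the intervals of the pairs do not overlap. Within the pairs the log2 ratio was 0.06 (-0.18 to 0.31) for Klf4deltaEC over Klf4flox/flox and 0.11 (-0.24 to 0.47) for Klf4deltaECNos3-/- over Nos3-/-. Between the pairs it was -0.90 (-1.22 to -0.62) for Nos3-/- over Klf4flox/flox, -0.85 (-1.18 to -0.56) for Klf4deltaECNos3-/- over Klf4deltaEC and -0.79 (-1.12 to -0.50) for Klf4deltaECNos3-/- over Klf4flox/flox, each short of the limit.

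That arrangement was looked for in all genes after the Calcrl values had been seen. The gap between the higher Nos3-/- labelled library and the lower of the others was 0.79 on the log2 scale for Calcrl, which places it 18th of 5043 genes, and a gap of at least 0.5 in that direction was found for 75 genes (1.49%). Among endothelial markers only Kdr, a VEGF receptor, reached that gap (0.55, from levels of 3.27, 2.93, 1.48 and 1.97); the gap was 0.26 or lower for the other 7. Emcn (19.6, 24.7, 11.4 and 18.4) and Flt1 (25.8, 36.3, 17.2 and 21.6) were also lower in both libraries with a Nos3-/- label, by a smaller gap (0.09 and 0.26). Cdh5, the cadherin of endothelial junctions, was at 1.95, 1.93, 1.40 and 2.70, and Ptprb at 13.7, 15.6, 7.61 and 20.2, both highest in the library labelled Klf4deltaECNos3-/-. The part of endothelial marker levels in the Calcrl values was not tested.

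Ramp2, the RAMP that endothelium requires for adrenomedullin signalling, was at 0.502 (0.311 to 0.768), 0.449 (0.268 to 0.705), 0.119 (0.0375 to 0.281) and 1.23 (0.883 to 1.67). It was lowest in the library labelled Nos3-/- and highest in the one labelled Klf4deltaECNos3-/-, and the interval of the highest lies above the other 3. The interval of the lowest lies below that of the control and touches that of Klf4deltaEC. The log2 ratios were -0.13 (-1.15 to 0.81) for Klf4deltaEC over Klf4flox/flox, -1.46 (-3.88 to -0.62) for Nos3-/- over Klf4flox/flox and 2.60 (2.02 to 5.11) for Klf4deltaECNos3-/- over Nos3-/-. The library labelled Klf4deltaECNos3-/- was also above Klf4deltaEC, by 1.28 (0.63 to 2.33), and above the control, by 1.14 (0.50 to 2.12). The Nos3-/- value rests on 4.83 inferred UMIs in a library where short genes were low, and the Ramp2 gene is 13.5 kb long; relative to genes of like length its 4 ratios stayed past the limit. With a pseudocount of 0.5 the ratio for Klf4deltaECNos3-/- over Nos3-/- was 1.48, and the other 3 were short of the limit (-0.70 for Nos3-/- over Klf4flox/flox, 0.87 over Klf4deltaEC and 0.79 over Klf4flox/flox). Vps25 overlaps Ramp2 on the same strand and was at 0 in cluster 10 in all 4 libraries. The sources used here do not say how reads shared by both genes were counted, so this 0 does not settle their part in the Ramp2 level.

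Ramp3, the alternative partner, was at 0.802 (0.554 to 1.12), 1.18 (0.872 to 1.56), 0.942 (0.668 to 1.29) and 1.37 (1.00 to 1.83). The intervals of neighbouring libraries overlap, and the 5 log2 ratios ran from 0.20 to 0.70. Both libraries with a Klf4deltaEC label were higher than their counterpart without it, by 0.50 (-0.11 to 1.24) for Klf4deltaEC over Klf4flox/flox and by 0.49 (-0.11 to 1.20) for Klf4deltaECNos3-/- over Nos3-/-, with both intervals including 0. Relative to genes of like length these 2 ratios were 0.52 and 0.18. Calcrl, Ramp2 and Ramp3 therefore did not share a pattern over the 4 libraries, although all had their highest mean level in the same cluster. For Ramp2 the range over libraries in cluster 10 (from 0.119) overlaps that of macrophage and immune-like cluster 21 (up to 0.179).

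Npr1 in cluster 10 was at 0.679 (0.453 to 0.979), 1.01 (0.722 to 1.36), 0.926 (0.654 to 1.27) and 1.49 (1.11 to 1.96). The control was lowest and the library labelled Klf4deltaECNos3-/- highest, with a log2 ratio of 1.03 (0.44 to 1.85) between them. Klf4deltaEC was above Klf4flox/flox by 0.50 (-0.16 to 1.31) and Klf4deltaECNos3-/- above Nos3-/- by 0.63 (0.05 to 1.33). Relative to genes of like length these 2 ratios were 0.57 and 0.20. The call of 1.03 was lost under 3 alternatives: 0.99 after rescaling the libraries, 0.89 relative to genes of like length and 0.75 with a pseudocount of 0.5.

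Npr3 in cluster 10 was at 0.714 (0.481 to 1.02), 2.15 (1.73 to 2.65), 0.925 (0.653 to 1.27) and 0.878 (0.590 to 1.26). One library, labelled Klf4deltaEC, was apart from the other 3, which overlap. It was above Klf4flox/flox by 1.47 (0.98 to 2.24), and Klf4deltaECNos3-/- was below it by a log2 ratio of -1.20 (-1.95 to -0.68). With a pseudocount of 0.5 the first ratio was 1.13 and the second -0.95, short of the limit. The same library was the highest for podocyte Npr3.

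Npr2, the cyclase for C-type natriuretic peptide, stayed below 0.5 in cluster 10, at 0.190 (0.0817 to 0.375), 0.310 (0.164 to 0.533), 0.124 (0.0406 to 0.288) and 0.183 (0.0679 to 0.394). All 4 intervals overlap, at 5.05 to 12.8 inferred UMIs, so a difference was not detectable at this depth.

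In all, 5 of the 7 genes entered the comparisons in cluster 10. For Klf4deltaEC over Klf4flox/flox 1 passed the limit (Npr3, higher), against 3.39% of all genes. For Nos3-/- over Klf4flox/flox 1 passed (Ramp2, lower), against 13.8%. For Klf4deltaECNos3-/- over Nos3-/- 1 passed (Ramp2, higher), against 17.9%. For Klf4deltaECNos3-/- over Klf4deltaEC 2 passed (Ramp2 higher, Npr3 lower), against 4.93%. For Klf4deltaECNos3-/- over Klf4flox/flox 2 passed (Ramp2 and Npr1, higher), against 4.4%. With a pseudocount of 0.5 the counts were 0 for Nos3-/- over Klf4flox/flox, for Klf4deltaECNos3-/- over Klf4deltaEC and for Klf4deltaECNos3-/- over Klf4flox/flox. The comparisons share libraries, so these counts are not separate observations.

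**Figure D2:**
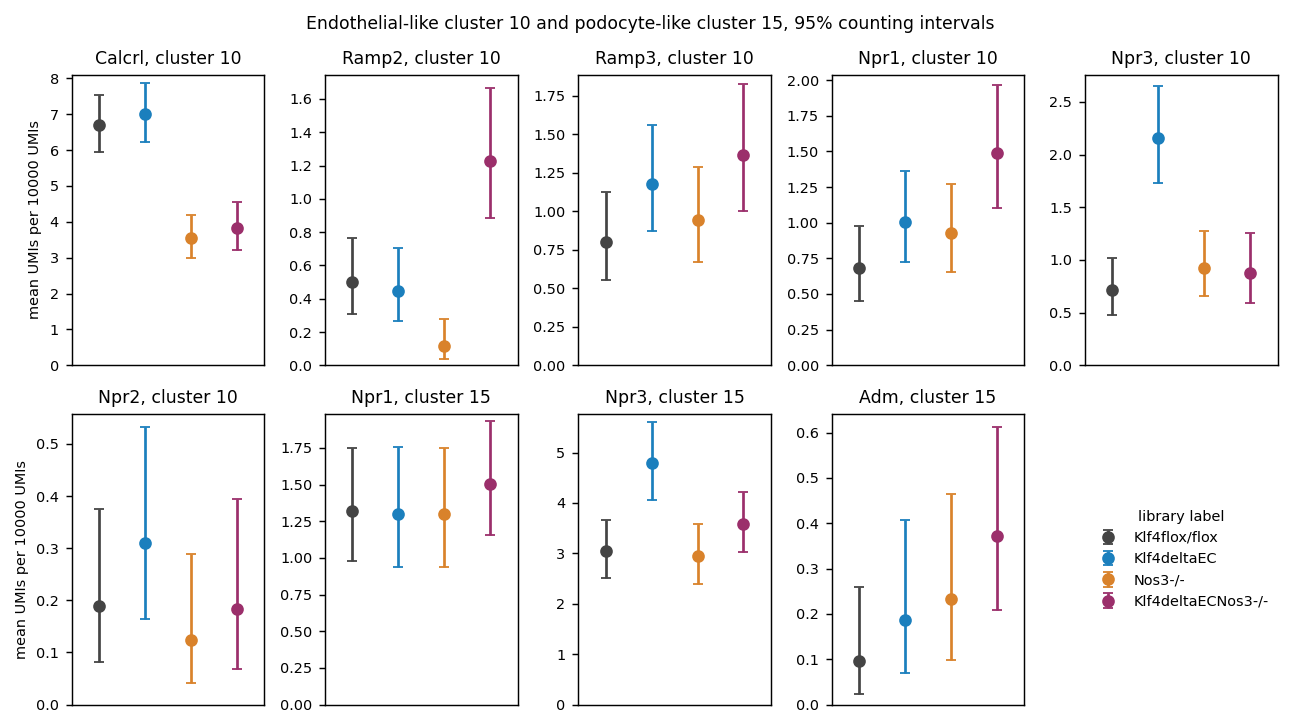
Level (mean UMIs per 10000 UMIs, y axis from 0, own scale per panel) in endothelial-like cluster 10 and podocyte-like cluster 15, 1 point per library with its 95% exact Poisson counting interval. Calcrl is lower in both libraries with a Nos3-/- label (3.55 and 3.84 against 6.71 and 7.01), and Npr3 is highest in the library labelled Klf4deltaEC in both clusters (2.15 and 4.79).

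**Figure D3:**
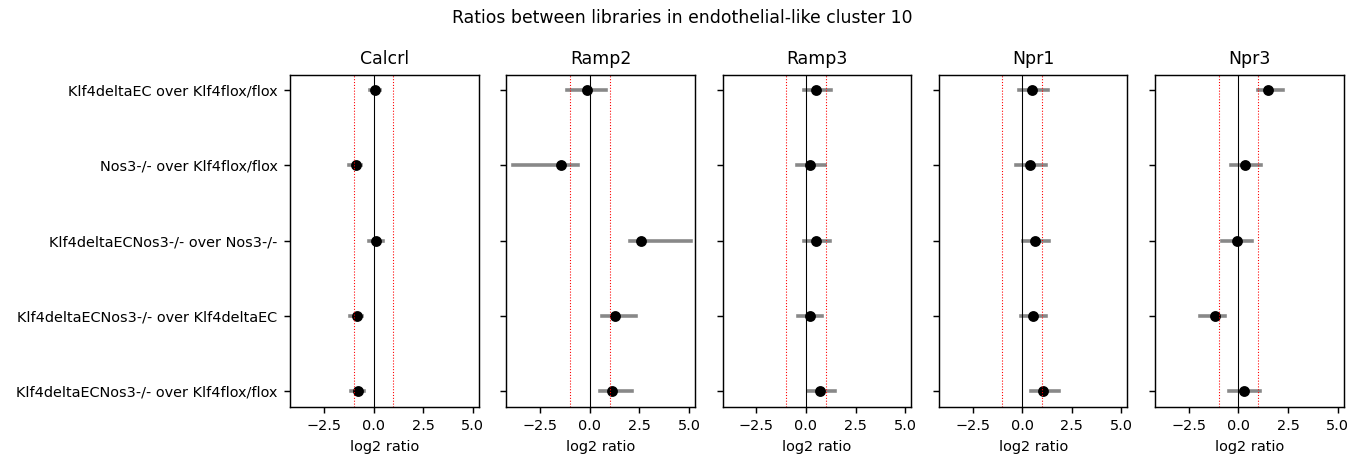
Log2 ratio of (level + 0.1) in cluster 10 (x axis) for 5 genes and 5 comparisons (y axis); points are ratios, grey bars 95% counting intervals of the plain ratio, dotted lines the size limit of 1 in either direction. Npr3 passes it for Klf4deltaEC over Klf4flox/flox at 1.47, Ramp2 passes it in 4 of 5 comparisons, Npr1 in 1 at 1.03, and Calcrl and Ramp3 in none.

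The design crosses 2 alleles, so the ratio for the Klf4deltaEC label can be set side by side in libraries with and without a Nos3-/- label. In cluster 10 the difference (Klf4deltaECNos3-/- over Nos3-/- minus Klf4deltaEC over Klf4flox/flox) was 0.05 for Calcrl, -0.01 for Ramp3, 0.13 for Npr1, -1.54 for Npr3 and 2.74 for Ramp2. In cluster 15 it was 0.22 for Npr1 and -0.36 for Npr3. Calcrl, Ramp3 and Npr1 thus had close ratios in the 2 pairs of libraries in cluster 10. Relative to genes of like length only those of Calcrl stayed close (0.09 and 0.11). They were 0.52 and 0.18 for Ramp3 and 0.57 and 0.20 for Npr1, lower in the pair with a Nos3-/- label. The ratios of Npr3 and Ramp2 in cluster 10 had opposite signs, but in each case 1 of the 2 ratios had an interval including 0: -0.07 (-0.82 to 0.66) for Npr3 and -0.13 (-1.15 to 0.81) for Ramp2. Each value comes from 4 single libraries and was not tested.

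Outside the glomerular and endothelial clusters, Npr3 was high in 1 more place. In cluster 18 it was at 0.531 (0.323 to 0.822), 0.993 (0.644 to 1.46), 3.28 (2.41 to 4.37) and 0.519 (0.298 to 0.840). The library labelled Nos3-/- was above the control by a log2 ratio of 2.42 (1.84 to 3.47), where 22.2% of all genes passed the limit, and Klf4deltaECNos3-/- was below Nos3-/- by a ratio of -2.45 (-3.57 to -1.82), where 21.6% did. Cluster 18 was named thin limb-like from means over libraries. The 4 thin limb markers summed there to 14.5, 22.1, 2.53 and 29.9. In the Nos3-/- library they summed to 0.495, 0.249 and 0.430 in clusters 10, 15 and 13, below cluster 18. The name is less certain in that library. Of the 3 markers of parietal epithelium, the outer layer of the glomerular capsule, Ncam1 (3.04, 4.03, 6.46 and 2.11) and Cldn1 (0.125, 0.150, 0.390 and 0.25) were highest in the library labelled Nos3-/-, as Npr3 was, and Pax8 (11.1, 14.9, 9.40 and 14.9) was lowest there. Summed, they were at 14.2, 19.1, 16.2 and 17.2. Proximal tubule markers (49.7 against at most 29.8) were higher in the Nos3-/- library. Podocyte markers were too (19.4 against at most 11.2), of which Magi2 made up 15.1, with 5 of 7 above the control and 2 below. This cluster held only 83 nuclei in that library and 103 to 140 in the others. Marker levels in cluster 18 therefore differed between libraries along with Npr3. In the Nos3-/- library proximal tubule markers were also highest in clusters 10 and 15 (summed 47.1 and 34.0). Thin limb markers were below the control there too (median log2 ratios -0.94 and -0.77). Makeup and background RNA cannot be told apart here, and their part in the Npr3 values was not tested.

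**Figure D4:**
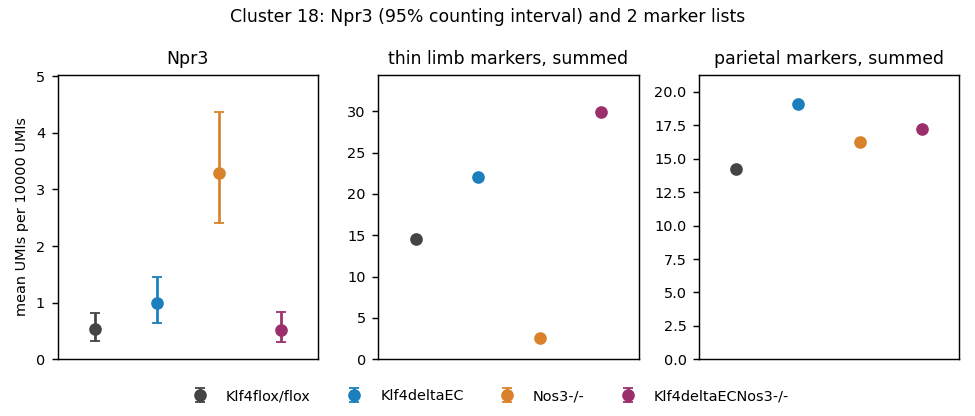
Npr3 level with its 95% counting interval, and the summed levels of 4 thin limb and 3 parietal epithelium markers (mean UMIs per 10000 UMIs, y axes from 0) in cluster 18, 1 point per library. The library labelled Nos3-/- has the highest Npr3 level (3.28) and the lowest thin limb sum (2.53), and its parietal sum (16.2), made mostly of Pax8, lies within the range of the others although Ncam1 and Cldn1 are highest there.

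Stromal, mesangial and mural-like cluster 13 held the next Calcrl level after endothelium, with no overlap between the clusters. Calcrl there was at 1.32 (0.945 to 1.79), 1.43 (1.13 to 1.79), 0.798 (0.560 to 1.1) and 2.00 (1.44 to 2.70). The library labelled Nos3-/- was again low, but the one labelled Klf4deltaECNos3-/- was the highest, the reverse of its place in cluster 10, with a log2 ratio of 1.22 (0.65 to 2.00) between them, where 9.16% of all genes passed the limit; with a pseudocount of 0.5 it was 0.94, short of the limit. Endothelial markers summed to 11.6, 9.70, 8.29 and 10.2 in cluster 13, with 84 to 234 nuclei a library, and their part in the Calcrl level was not tested. Npr1 in this cluster was at 0.246, 0.197, 0.324 and 0.356, and Npr3 was at 0.362, 0.344, 0.232 and 0.0979. In macrophage and immune-like cluster 21 Calcrl was at 1.18 (0.571 to 2.14), 0.792 (0.280 to 1.76), 0.796 (0.235 to 1.96) and 0.427 (0.0880 to 1.25), with overlapping intervals.

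Npr2 was arranged unlike the other receptors, with its highest mean in proximal tubule-like cluster 1 at 0.351 (0.302 to 0.407), 0.299 (0.249 to 0.357), 0.421 (0.338 to 0.519) and 0.431 (0.370 to 0.498). Cluster 18 (0.130 to 0.492), proximal tubule-like cluster 3 (0.224 to 0.254), unnamed cluster 12 (0.0626 to 0.499) and proximal tubule-like cluster 5 (0.176 to 0.259) followed, and the ranges of neighbours in this order overlap. Over the 5 proximal tubule-like clusters pooled, Npr2 was at 0.208 (0.185 to 0.233), 0.175 (0.153 to 0.199), 0.222 (0.191 to 0.257) and 0.230 (0.203 to 0.259). The lowest was the library labelled Klf4deltaEC; Npr2 was below the control there in 15 of clusters 0 to 19 and above it in 4, but with an interval excluding 0 in only 1.

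Over 13 tubule-named clusters pooled, the receptors highest in endothelium were present at trace levels that nonetheless differed between libraries. Tubule Calcrl was at 0.0196 (0.0142 to 0.0265), 0.0289 (0.0212 to 0.0386), 0.0963 (0.0789 to 0.116) and 0.020 (0.0137 to 0.0283). The library labelled Nos3-/- was 4.91 times the control and above it in 13 of 13 clusters, the opposite of its place in endothelial nuclei. Most endothelial markers were higher in tubule-named nuclei of that library too. The largest ratios were those of Flt1 (2.94 times, 13 of 13 clusters), Emcn (2.40 times, 12 of 13) and Ptprb (2.18 times, 13 of 13). Pecam1 (1.66 times, 10 of 13), Tek (1.62 times, 10 of 13) and Kdr (1.16 times, 8 of 13) rose less. Cdh5 was not higher (0.826 times), and Egfl7, near 0 in every library, was at 0 there. RNA from endothelial nuclei as a source was not tested. Ramp2 went the other way at 0.0191, 0.0137, 0.00358 and 0.0164, with the Nos3-/- value resting on 4.17 inferred UMIs. It was lower in the Nos3-/- library than in the control in 18 of clusters 0 to 19, but with an interval excluding 0 in only 1. Tubule Npr3 was at 0.0255, 0.00857, 0.0429 and 0.0171.

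**Figure D5:**
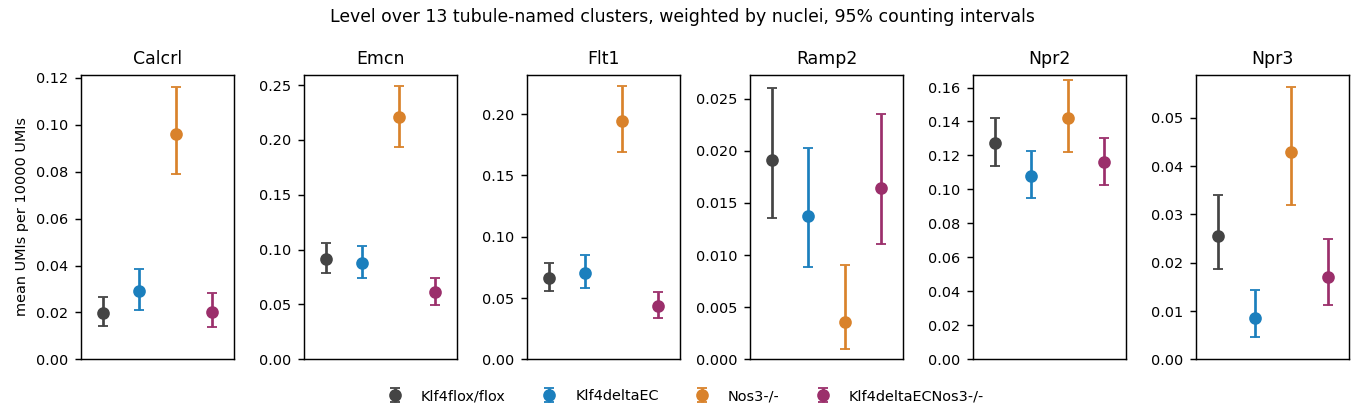
Level (mean UMIs per 10000 UMIs, y axis from 0, own scale per panel) over 13 tubule-named clusters weighted by nuclei, 1 point per library with its 95% counting interval. Calcrl and the endothelial markers Emcn and Flt1 are highest in the library labelled Nos3-/- (Calcrl 0.0963), where Ramp2 is lowest (0.00358), and Npr2 varies little.

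Genes with the most similar distribution were read from the Pearson correlation of log2 mean levels over the 23 clusters, which share libraries and were formed from the same genes, so the values are descriptions. For Calcrl they were the endothelial genes Emcn (r = 0.99), Ldb2 (0.98) and Flt1 (0.98), for Ramp2 Slfn3 (0.99), Nos3 (0.98) and Bcl6b (0.98), and for Ramp3 Cd34 (0.96), Ramp2 (0.95) and She (0.95). Npr1 was nearest to Ephb1 (0.97), Zfp423 (0.97) and Tspan2 (0.95), and Npr3 to C1qtnf7 (0.94), Plat (0.92) and Nes (0.92), all highest in podocyte-like nuclei. The neighbours of Npr2 had lower r: Calml4 (0.86), Palm (0.85) and 1700016C15Rik (0.84). By Spearman's rho these were at 0.82, 0.87 and 0.87. The listed neighbours of the other genes had a rho of 0.25 (Ramp2 and Nos3) to 0.81 (Calcrl and Emcn), so the order depends on the measure. The neighbours of Adm were Myom2, Opcml and Pbx2 (r = 0.90 each). Their r fell as low as 0.06 in a single library, so the pattern of Adm is poorly fixed. Among the 7 genes Ramp2 and Ramp3 were most alike (0.95), then Ramp2 and Calcrl (0.88), Npr1 and Npr3 (0.87) and Ramp3 and Calcrl (0.86).

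The wider pathway was read from 5 lists of 44 genes, 41 of them measured. The circulating and local ligands were near 0: Nppa, Nppc and Ostn did not exceed 0.0345 in any column. Corin, the protease that matures atrial natriuretic peptide, was highest in cluster 18 at 21.6, 3.45, 2.55 and 16.1. It was lower in the libraries labelled Klf4deltaEC and Nos3-/- than in the others. In that cluster 22.2% of all genes passed the limit for Nos3-/- over the control. Marker levels there differed between libraries, and their part in the Corin values was not tested. Of ligands and enzymes, Pcsk6, a proprotein convertase, was lower in cluster 10 in both libraries with a Klf4deltaEC label (0.529, 0.105, 0.516 and 0.149). The log2 ratios were -1.62 for Klf4deltaEC over the control, -1.31 for Klf4deltaECNos3-/- over Nos3-/- and -1.34 for Klf4deltaECNos3-/- over the control. No counting interval is given for them. The levels of 0.105 and 0.149 were little above the level of 3 counts in cluster 10 of those libraries (0.0729 and 0.0893). The mean of Pcsk6 over libraries was 7.37 and 4.84 in thick ascending limb-like clusters 2 and 4, against 0.325 in cluster 10. In cluster 15 it was also lower in both libraries with that label (2.31, 1.38, 2.73 and 1.66). In cluster 2 it was at 8.95, 3.99, 8.52 and 8.02. RNA from tubule nuclei as a source in cluster 10 was not tested. Ide, a peptide-degrading protease, was higher in cluster 10 of the Nos3-/- library (0.399, 0.541, 1.01 and 0.548; ratio 1.15) and in cluster 15 lower in Klf4deltaECNos3-/- (0.359, 0.611, 0.608 and 0.176; ratios of -1.37 and -1.36 to Klf4deltaEC and Nos3-/-). Mme, which encodes the peptide-degrading enzyme neprilysin, was at 3.13, 1.80, 1.89 and 1.73 in podocyte-like nuclei.

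Among 8 measured cyclic GMP effectors, Prkg1, the cyclic GMP-dependent kinase, had the most UMIs in both clusters, at 18.2, 20.3, 10.4 and 16.1 in cluster 10 and 24.0, 23.1, 21.1 and 24.4 in cluster 15. Of this list 0 passed the limit in cluster 10, and in cluster 15 only Pde1a, a cyclic nucleotide phosphodiesterase, did, higher in Nos3-/- than in the control (0.667, 0.975, 1.52 and 1.14; ratio 1.08). Of the adrenomedullin and CGRP ligands, Adm2, Calca and Calcb did not exceed 0.0803 in either cluster, and Pam, which amidates such peptides, was at 4.66, 3.58, 5.50 and 5.41 in cluster 10 and at 4.75, 4.85, 5.92 and 4.67 in cluster 15. Ramp1 was at 0 in both clusters in all 4 libraries.

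Of 5 other receptors only 1, Ackr3, a scavenging receptor that also takes up adrenomedullin, reached the level of 0.5 in cluster 10. It did so only in the library labelled Klf4deltaECNos3-/- (0.323, 0.380, 0.130 and 0.602), and its ratio to Nos3-/- was 1.61. The rest of that list stayed below 0.5 there, so none of them could pass. In cluster 15 Ackr3 was lower in both libraries with a Nos3-/- label (1.42, 1.44, 0.766 and 0.683). The ratios between the pairs were -0.81 to -0.98, short of the limit. Of 16 cyclic AMP effectors, Prkar1a (higher, 0.925, 0.827, 0.486 and 1.17; ratio 1.12) and Pde4d (lower, 20.0, 16.4, 35.7 and 16.7; ratio -1.09) passed in cluster 10 for Klf4deltaECNos3-/- over Nos3-/-. In cluster 15 Pde4d was at 16.5, 16, 26.0 and 13.4. Its mean over libraries was 64.8 and 59.0 in proximal tubule-like clusters 1 and 5, against 22.2 in cluster 10. Proximal tubule markers in cluster 10 summed to 23.5, 17.8, 47.1 and 14.9. RNA from tubule nuclei as a source of Pde4d there was not tested. For Klf4deltaECNos3-/- over Nos3-/- the median ratio in cluster 10 of the 11 cyclic AMP effectors that entered was 0.18 against 0.10 for all genes, and of the 3 cyclic GMP effectors -0.14. Over the 5 lists in cluster 10, 1 of 16 genes that entered passed the limit for Klf4deltaEC over Klf4flox/flox (3.39% of all genes did), 1 of 17 for Nos3-/- over the control (13.8%), 4 of 19 for Klf4deltaECNos3-/- over Nos3-/- (17.9%), 0 of 17 for Klf4deltaECNos3-/- over Klf4deltaEC (4.93%) and 1 of 18 for Klf4deltaECNos3-/- over the control (4.4%). In cluster 15 the counts in the same order were 0 of 15 (3.23%), 1 of 16 (8.55%), 1 of 16 (11.7%), 1 of 16 (4.83%) and 0 of 15 (4.22%).

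The table's genes lie, in GENCODE M21 coordinates (GRCm38, mm10), at chr3:90450591-90465866 for Npr1, chr4:43631935-43651244 for Npr2, chr15:11839896-11907287 for Npr3, chr11:101246028-101259546 for Ramp2, chr11:6658521-6677475 for Ramp3, chr2:84330626-84425411 for Calcrl and chr7:110627661-110629820 for Adm. Antisense genes overlap Npr1 (Gm16048), Npr2 (Gm12473) and Adm (Gm28863), and 2 more, Gm11978 at Ramp3 and Gm5144 at Npr3, are not analysed here. In cluster 10 Gm28863 was at 0.0416, 0.00856, 0.150 and 0.0294, and Gm16048 at 0.0993, 0.0550, 0 and 0. The sources used here do not say whether counting used strand, so reads of these pairs cannot be told apart.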

How the data were processed

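Nuclear RNA of mouse kidney cortex was counted by droplet single-nucleus sequencing (10X Chromium), per the labels' protocols. Cell Ranger, Seurat and the mm10 build were used, per the submitters' processing notes. The authors deposited a normalized signal for 21046 genes in 92 columns, 23 clusters in each of 4 libraries. Every column sums to 10000, so a value is a mean over nuclei of UMIs per 10000. Clustering is the authors'; the sources used here do not give doublet treatment, nucleus filters or shared barcodes. Each column was mapped by library title, and 0 were left over.

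Nuclei numbers and effective UMI totals were inferred from the reciprocals of single-UMI values, as the largest divisor of at least 85% of them (tolerance 3e-14), and tested on simulated data. The levels of 3 counts ran from 0.00591 to 1.32 per 10000 over libraries and clusters. Clusters were named where marker scores reached 0.5 and led the next by 0.5, with 3 markers detected; that rule was set with the table in view. Clusters 7, 12 and 17 stayed unnamed. Log2 ratios used a pseudocount of 0.1 and a level filter of 0.5. The 7 genes, the lists and the rules were chosen with earlier results of these data known. Named genes were the 7, the 3 most alike each, and in each list those past the limit and those with the highest level in clusters 10 and 15; Corin, Ramp1 and the ligand genes near 0 were added after their values were seen. Alternatives were another pseudocount, no filter, median-ratio rescaling, Spearman correlation, a mean without the Nos3-/- library and ratios relative to genes of like length. Protein sequences were not used here. Python 3.11.15, numpy 2.4.6, pandas 2.3.3 and scipy 1.17.1 were used.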

Additional observations from a re-analysis of the deposited data

Results flagged for a closer look

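The ratio for the Klf4deltaEC label was compared in libraries with and without a Nos3-/- label, in clusters 10, 13, 15 and 18. Among genes that reached the level of 0.5, its signs were opposite for 4 results, each read from 4 single libraries. The signs were the same for Npr1, Ramp3 and Calcrl in cluster 10, Npr3 in cluster 15 and Calcrl in cluster 13. Below that level opposite signs also occurred, as for Npr2 in clusters 13, 15 and 18. Their share over all genes was not worked out, so the 4 results are not shown to be unusual. None of these differences was tested. The difference (Klf4deltaECNos3-/- over Nos3-/- minus Klf4deltaEC over Klf4flox/flox) was -1.54 for Npr3 in cluster 10, from ratios of 1.47 and -0.07. For Ramp2 in cluster 10 it was 2.74, from -0.13 and 2.60. For Npr3 in cluster 18, where marker levels differed between libraries, it was -3.24, from 0.79 and -2.45. For Npr1 in cluster 15 it was 0.223, from -0.02 and 0.20. The counting interval includes 0 for the ratio nearer 0 of each Npr3 and Ramp2 result and for both Npr1 ratios.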

How the results depend on the processing

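No paired analysis was possible because each genotype has 1 library, and for the same reason no replicate could be left out. No called ratio of the 7 genes reversed under any alternative run. A pseudocount of 0.5, which shrinks low levels, took below the limit the ratios of Npr1 for Klf4deltaECNos3-/- over Klf4flox/flox (0.75), Npr3 and Ramp2 for Klf4deltaECNos3-/- over Klf4deltaEC (-0.95 and 0.87), Ramp2 for Nos3-/- and Klf4deltaECNos3-/- over Klf4flox/flox (-0.70 and 0.79) in cluster 10, and Calcrl for Klf4deltaECNos3-/- over Nos3-/- in cluster 13 (0.94), leaving 0 of the 7 past it in cluster 10 for 3 comparisons; Npr3 for Klf4deltaEC over Klf4flox/flox and Ramp2 for Klf4deltaECNos3-/- over Nos3-/- stayed past it. Npr1 for Klf4deltaECNos3-/- over Klf4flox/flox also fell to 0.99 under rescaling, which left 1 of the 7 past the limit, and to 0.89 relative to genes of like length (chosen after seeing the data). In the order Klf4deltaEC over Klf4flox/flox, Nos3-/- over Klf4flox/flox, Klf4deltaECNos3-/- over Nos3-/-, Klf4deltaECNos3-/- over Klf4deltaEC and Klf4deltaECNos3-/- over Klf4flox/flox, all genes past the limit numbered 148, 618, 846, 223 and 202 in cluster 10, 16, 229, 366, 24 and 28 with a pseudocount of 0.5, and 508, 1319, 1824, 724 and 716 with no filter. In cluster 15 they numbered 117, 318, 443, 180 and 157, then 14, 75, 128, 31 and 31, then 542, 981, 1166, 627 and 536; with no filter 1 of the 7 (Adm, for Klf4deltaECNos3-/- over Klf4flox/flox) passed there. Rescaling moved the share of higher calls in cluster 15 from 47.0% to 57.5% for Klf4deltaEC over Klf4flox/flox and from 54.1% to 41.2% for Nos3-/- over Klf4flox/flox. Spearman's rho differed from Pearson's r by more than the spread of r over libraries for 16 of 21 gene pairs, and r without the Nos3-/- library for 0 of 21. Adm, Npr2 and every level in cluster 21 are limited by depth.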
